A study of Homo sapiens with 19 samples.

Results

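Of the 120 ribosomal RNA (rRNA) nucleotides whose ribose methylation was scored here, 34 kept a score of 0.9 or more in both libraries of Kasumi-1 cells that carried the fibrillarin (FBL) knockdown together with an empty vector. These 34 sites were chosen by that score and by nothing else. They are 20 of the 47 scored sites of 18S rRNA, 14 of the 71 of 28S rRNA and 0 of the 2 of 5.8S rRNA. Most of them also scored high in the remaining libraries, but 10 sites, each in 18S rRNA, went under 0.9 in at least 1 library with a mutant FBL. Only 4 of these were under it in all 4 mutant libraries. The sites 18S-627, 18S-683 and 18S-1804 also went under it in a library without a mutant FBL.

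Ribose methylation adds a methyl group to the 2′-hydroxyl of a nucleotide. In rRNA it is placed mainly by the box C/D particles of the nucleolus. A small nucleolar RNA (SNORD) pairs with the rRNA and so picks the nucleotide, NOP56, NOP58 and SNU13 form the scaffold, and FBL transfers the methyl group. Most human SNORD genes lie in introns of other genes, among them genes for ribosomal proteins and the long non-coding genes GAS5 and SNHG1, and many sites are methylated on nearly every rRNA molecule while others are methylated on only some.

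RiboMethSeq hydrolyses RNA in alkali and counts fragment ends along the rRNA. A 2′-O-methyl group protects the next bond, so few ends fall there. The deposited value, score C, subtracts from 1 the ratio of the site's count to the level of its 6 flanking positions on either side. It is near 1 where almost all molecules are methylated, and every value below is a score C or a difference between scores on that scale of 0 to 1. Sites are named by rRNA and position as in the deposited table, in an older 28S numbering, and genome coordinates do not apply to them.

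All 19 libraries came from the acute myeloid leukaemia line Kasumi-1, grown with 20% serum. The 14 knockdown libraries, controls included, were given doxycycline at 100 ng/ml and form 7 groups of 2. Without re-expression there are control knockdown (control KD) and FBL knockdown (FBL KD). The empty vector was put into each of these as well, and FBL KD cells further received wild-type FBL, the mutant titled FBLTri or the mutant titled FBLQua. No doxycycline is stated for the other 5 libraries. They are a control knockout clone, the SNORD127 knockout clones C1 and C34, and clone C1 carrying an empty vector or SNORD127. Each of these has 1 library. Titles and column names do not match for the mutants: libraries titled FBLTri carry Dual and those titled FBLQua carry Tri. Titles were followed here, and which residues differ is not stated in the labels. The control clone was likewise taken from its title. The FBL KD columns with and without a vector carry different shFBL numbers, whose meaning is not stated, so the vector and what those numbers mark cannot be told apart. FBL RNA or protein was not among the values used here, so the strength of each knockdown was not measured. The labels do not say whether replicates are separate cultures, and p-values then measure only the spread between these libraries.

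Libraries held 5533150 to 18835537 end counts, and the 4 knockdown libraries without a vector were the shallowest. The flank level of the 34 sites had a median of 727 counts over all libraries, but only 225 and 93.8 in the FBL KD and 451 and 163 in the control KD libraries without a vector. The half-width of the 95% exact counting interval of a score had a median of 0.0121 over all libraries and of 0.0475 in the shallower of those FBL KD libraries, where it reached 0.176. Of the 646 scores of these sites, 34 rested on a count of 0, 28 of them in the libraries without a vector. A count of 0 allows up to 3 counts, so such a score could lie as low as 0.714 at the thinnest flank. End counts are not independent molecules, and these limits cover counting error only.

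The sites and their guides, as the deposited table pairs them, carry the result and are given here in order along each rRNA, with the gene that holds the guide, where given, in the RefSeq annotation of GRCh38.p14. In the first part of 18S rRNA they were 18S-27 (SNORD27 in SNHG1), 18S-121 (SNORD4A and SNORD4B in RPL23A), 18S-166 (SNORD44 in GAS5), 18S-172 (SNORD45A and SNORD45B in RABGGTB), 18S-484 (SNORD16 in RPL4), 18S-509 (SNORD11 and SNORD11B in NOP58) and 18S-512 (SNORD70 in NOP58). They went on with 18S-517 (SNORD56 in NOP56), 18S-576 (SNORD93 in SNHG26), 18S-601 (SNORD103A, SNORD103B and SNORD85), 18S-627 (SNORD65 in SNHG29), 18S-644 (SNORD54 in RPS20) and 18S-668 (SNORD36A and SNORD36B in RPL7A). In the later part of 18S rRNA they were 18S-683 (SNORD19 and SNORD19B in GNL3), 18S-1326 (SNORD33 in RPL13A), 18S-1328 (SNORD32A in RPL13A, and SNORD32B), 18S-1383 (SNORD30 in SNHG1), 18S-1490 (SNORD25 in SNHG1), 18S-1703 (SNORD43 in RPL3) and 18S-1804 (SNORD20 in NCL). In 28S rRNA the first were 28S-1612 (SNORD80 in GAS5), 28S-2351 (no guide number), 28S-3771 (SNORD15A in RPS3), 28S-3797 (SNORD17 in SNX5), 28S-3809 (SNORD79 in GAS5), 28S-3820 (SNORD74 in GAS5) and 28S-3866 (SNORD47 in GAS5). The last were 28S-4166 (SNORD31 in SNHG1), 28S-4340 (SNORD60 in SNHG19), 28S-4426 (SNORD49A and SNORD49B in SNHG29), 28S-4468 (SNORD62A and SNORD62B in PRRC2B), 28S-4469 (no guide number), 28S-4493 (SNORD29 in SNHG1) and 28S-4506 (SNORD35A in RPL13A, and SNORD35B). Of the 43 guide symbols named for these sites 42 were found in that annotation.

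The 2 libraries that chose the sites gave these scores, which are a description and carry no test. The highest were 0.994 and 0.998 at 28S-4468, 0.996 and 0.990 at 18S-517 and 0.983 and 0.993 at 28S-4469. Just inside the limit lay 28S-2351 at 0.904 and 0.905, 18S-484 at 0.925 and 0.904, and 28S-3809 at 0.911 and 0.911. Just outside lay 28S-1521 at 0.898 and 0.930, 18S-1288 at 0.902 and 0.898, and 28S-4541 at 0.890 and 0.894. The boundary is therefore within counting error for some sites: 18S-484, 18S-627, 18S-1804, 28S-2351 and 28S-3809 had a lower 95% counting bound under 0.9 in at least 1 of the choosing libraries, and the other 29 did not. A limit of 0.85 would have taken 48 sites and one of 0.95 only 14, the latter leaving out 18S-166, 18S-512, 18S-668, 18S-1326 and 18S-1328 among others. With flanks of 2 positions in the score 32 sites would have been taken. That choice leaves out 18S-121, 28S-2351, 28S-4426 and 28S-4493 and adds 18S-1288 and 28S-4032.

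Nearly all of the chosen sites were also high in the controls. Of the 82 sites at 0.9 or more in all 4 control KD libraries, 33 were chosen, against 1 of the other 38. That exception, 18S-627, scored 0.962 and 0.975 in control KD without a vector but 0.969 and 0.896 with the empty vector. Among those 82 sites the chosen share was 19 of 32 in 18S rRNA and 14 of 49 in 28S rRNA. Between the control and FBL KD libraries with an empty vector, the contrast that holds the choosing libraries, the median difference was -0.0258 over the 33 chosen sites and -0.148 over the 49 that started as high, which restates the choice.

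The sites were spread unevenly along the rRNAs. In 18S rRNA 13 of the 23 scored sites up to position 670 were chosen and 7 of the 24 beyond it. In 28S rRNA the count was 1 of 15 up to position 2000, 1 of 17 from there to 3500, 5 of 20 from there to 4100 and 7 of 19 beyond 4100. Having another scored site within 6 nucleotides, inside the flanks of the score, made little difference to the share, at 13 of 44 with such a neighbour and 21 of 76 without. Of the 18S sites on a list of positions that are also methylated in yeast, 8 of 13 were chosen, against 12 of the other 34. Among the 18S sites at 0.9 or more in all 4 control KD libraries the counts were 7 of 9 and 12 of 23. These shares are counts on chosen sites and were not tested.

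Guides named for the chosen sites did not come from 1 kind of host gene. Non-coding hosts (GAS5 and the SNHG genes) held the guide of 14 chosen sites of 30 scored, ribosomal protein genes of 9 of 31, and NOP56 or NOP58, which encode scaffold proteins of the box C/D particle itself, of 3 of 5. By single host, 5 of 10 sites guided from GAS5 were chosen, 5 of 8 guided from SNHG1 and 3 of 5 guided from RPL13A. Every scored site of these hosts was at 0.9 or more in all 4 control KD libraries. Among all sites that high in the controls, 33 of 82 were chosen. A single named guide served 22 chosen sites of 73 and several named guides served 10 of 31, so the share of chosen sites was much the same with 1 guide as with more. Of the 13 sites with only a predicted or unknown guide 0 were chosen, but 0 of them were at 0.9 or more in all 4 control KD libraries and their median control score was 0.207. The sites 28S-2351 and 28S-4469 carry the word SNORD without a number. 28S-4469 is known as a target of FTSJ3, a methyltransferase that works without a guide RNA.

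Across the other 17 libraries most of the sites stayed high. All 34 scored 0.9 or more in both control KD libraries without a vector and in both libraries with wild-type FBL, and 34 and 33 did in control KD with the empty vector. In FBL KD without a vector 33 and 32 did. With FBLTri 27 and 27 reached 0.9 and with FBLQua 27 and 28, so the mutant libraries held the lowest counts. Among the 86 sites not chosen, 19 and 21 reached 0.9 in FBL KD without a vector, 6 and 5 with FBLTri, 4 and 6 with FBLQua, and 35 and 41 with wild-type FBL. Medians over the 34 sites were 0.992 and 0.996 in control KD, 0.977 and 0.963 in FBL KD, 0.980 and 0.981 in control KD with the empty vector, 0.973 and 0.978 with wild-type FBL, 0.941 and 0.945 with FBLTri, and 0.940 and 0.948 with FBLQua.

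In all 19 libraries 23 of the sites held 0.9 or more, 13 of the 14 in 28S rRNA and 10 of the 20 in 18S rRNA. The choice fixes this for the 2 choosing libraries, and the other sites could not reach it. The sites 18S-512, 18S-668, 18S-1326 and 18S-1328 were under 0.9 in all 4 mutant libraries, and 18S-166 and 18S-509 in 3 of the 4. The site 18S-627 was under it in 1 library of each mutant, in control KD with the empty vector (replicate 2) and in clone C1 with the empty vector. The sites 18S-644, 18S-683 and 18S-1804 were under it in 1 mutant library each, and 18S-683 also in FBL KD replicate 2 and 18S-1804 in FBL KD replicate 1. In 28S rRNA only 28S-4426 was under it, at 0.894 in FBL KD replicate 2. The SNORD127 clones, in which FBL was not targeted, scored 0.894 to 1 at these sites with a median of 0.985, and the range of a site over the 5 clone libraries had a median of 0.0124.

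FBL KD was first compared with control KD where neither carried a vector, since these 4 libraries played no part in the choice. Here and below, limma was fitted to the 12 knockdown libraries other than the choosing ones, and a site was called at an adjusted p under 0.05 over all 120 sites. Of the 34 sites 14 fell and 0 rose, against a background of 59.2% of all 120 sites lower and 1.67% higher. The median change was -0.0208 over the 34 sites and -0.0676 over all sites. The falls were 7 of 20 sites in 18S and 7 of 14 in 28S rRNA, while 42 of the 49 other sites that were as high in the controls fell. Sites that kept a score of 0.9 could thus still fall.

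The best measured of these falls was at 18S-1383, guided by SNORD30. It scored 0.994 and 0.997 in control KD and 0.927 and 0.929 in FBL KD, with flank levels of 504 counts or more. The groups do not overlap, and the change was -0.0676 (SE 0.00262, n = 2 per group, limma adjusted p = 9.78e-07). At 28S-2351 the scores were 0.990 and 0.992 against 0.923 and 0.925, a change of -0.0675 (SE 0.00628, limma adjusted p = 4.65e-05). Both FBL KD libraries stood below both controls at each of these sites. The scored sites 28S-2350 and 28S-2352 lie within the flanks of 28S-2351 and changed by -0.111 and -0.185, so these values are not independent.

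At 28S-3771, guided by SNORD15A, control KD scored 0.997 and 1 and FBL KD 0.936 and 0.934, and the change was -0.0633 (SE 0.00643, limma adjusted p = 7.85e-05). At 28S-4426, guided by SNORD49A and SNORD49B, 0.969 and 0.978 stood against 0.924 and 0.894, a change of -0.0648 (SE 0.0104, limma adjusted p = 0.000916). The groups were separate at both sites. The sites 28S-3797 (SNORD17) and 28S-3820 (SNORD74) fell by 0.0447 and 0.0384, and 18S-644 (SNORD54) fell by 0.0516. The other called falls were at 18S-166, 18S-1328, 28S-4340 and 28S-4506, at -0.0343, -0.0238, -0.0177 and -0.0281.

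The fall with the largest value was at 18S-683, guided by SNORD19 and SNORD19B, and it was the least even. Control KD scored 0.9951 and 1, and FBL KD 0.955 and 0.866, a change of -0.0873 (SE 0.0275, limma adjusted p = 0.0257). It was -0.0427 without FBL KD replicate 2 and -0.132 without replicate 1, and it was not called without FBL KD replicate 2 or without control KD replicate 1 (-0.0898) or replicate 2 (-0.0849). At 18S-1326, with 0.992 and 0.998 against 0.972 and 0.925, the change of -0.0466 (limma adjusted p = 0.0215) was likewise not called without FBL KD replicate 2 (-0.0232) or without either control (-0.0492 and -0.0439), and it was -0.0699 without FBL KD replicate 1. At 18S-668 the change of -0.0519 was not called without FBL KD replicate 2 (-0.0411) or control KD replicate 2 (-0.0497), and at 18S-644 it was -0.0332 without FBL KD replicate 1. Fitting these 4 libraries alone ended the calls at 18S-644, 18S-683 and 18S-1326, and at the smaller falls of 18S-166, 18S-1328, 28S-4340 and 28S-4506. Of these, 18S-166 was also not called without FBL KD replicate 2 (-0.0142), control KD replicate 1 (-0.0327) or 2 (-0.0359), or control KD with the empty vector replicate 2 (-0.0343), and 18S-1328 without FBL KD replicate 2 (-0.0183) or control KD replicate 2 (-0.0203), or with flanks of 2 positions (-0.0313). The call at 28S-4506 was lost without FBL KD replicate 2 (-0.0130) or control KD replicate 1 (-0.0316) or 2 (-0.0247), with no variance trend and with the replicate block. Replicate 2 of FBL KD is the library with the thinnest flanks.

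The count of 14 was 8 without control KD replicate 2 and 8 when only these 4 libraries were fitted. With library medians made equal, which lifts the FBL KD libraries, 28 of the 120 sites were lower and 51 higher, and 0 and 32 of the chosen sites. The falls here are changes in the score itself, and against the middle site of each library the chosen sites stood higher. With flanks of 2 positions the changes were -0.180 at 18S-683, -0.103 at 28S-2351 and -0.145 at 28S-4426.

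With wild-type FBL re-expressed in FBL KD cells, 0 of the 34 sites were called lower or higher than in control KD with the empty vector by limma, and 1 had an unadjusted p under 0.05 (28S-3866, guided by SNORD47). It scored 0.967 and 0.972 in the controls and 0.947 and 0.955 with wild-type FBL, a change of -0.0184 (SE 0.0069, limma adjusted p = 0.0857). The background was 29.2% of all sites lower and 0.833% higher. Changes at the 34 sites ran from -0.0332 at 18S-683 to 0.0142 at 28S-3820, with a median of -0.00481 against -0.0285 over all sites. Of the 49 other sites that started as high, 25 were lower. The count at the chosen sites was 2 without wild-type FBL replicate 2, 1 with the 2 groups fitted alone, 1 with a replicate block and 3 on the logit scale. Over all sites the 36 calls became 23 without wild-type FBL replicate 1. With library medians made equal 13 sites were lower and 25 higher, and 0 and 22 of the chosen ones.

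With the mutants in place of wild-type FBL, more of the chosen sites were low, and the largest falls were in 18S rRNA. Against control KD with the empty vector, 19 of the 34 fell with FBLTri and 18 with FBLQua, and 0 rose with either. With FBLTri the background was 70.8% of all sites lower and 0.833% higher. With FBLQua it was 70% and 0.833%. Medians over the 34 sites were -0.0268 with FBLTri and -0.0257 with FBLQua, against -0.108 and -0.104 over all sites. In 18S rRNA 12 of 20 fell with each mutant, and in 28S rRNA 7 and 6 of 14. Of the 49 other sites as high in the controls, 48 fell with FBLTri and 49 with FBLQua.

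Against FBL KD with wild-type FBL, 18 of the 34 were lower with FBLTri (background 61.7%) and 0 higher (background 0%). With FBLQua 17 were lower (background 59.2%) and 1 higher (background 0.833%). The 4 mutant comparisons share their control or mutant libraries, so they are not independent of each other. With library medians made equal, 31 sites of all 120 were lower and 48 higher for FBLTri, and 29 and 54 for FBLQua, against control KD, and 25 and 41, and 22 and 43, against wild-type FBL. The chosen sites then counted 0 lower and 27 higher, 0 and 31, 1 and 24, and 1 and 26. The count of 17 was 10 without FBLQua replicate 1.

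The largest fall among the chosen sites was at 18S-512, guided by SNORD70 from an intron of NOP58. It scored 0.991 and 0.997 in control KD with the empty vector, 0.961 and 0.990 with wild-type FBL, 0.846 and 0.823 with FBLTri and 0.806 and 0.855 with FBLQua. Behind these were 8 and 1 end counts at the site in the controls, 177 and 178 with FBLTri and 223 and 134 with FBLQua. All 4 mutant libraries lay below every other knockdown library outside the choosing pair. The choosing libraries scored 0.955 and 0.944, but the rule holds them at 0.9 or more, so their place above the mutants restates the choice.

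The change at 18S-512 from control was -0.160 with FBLTri (SE 0.0171, limma adjusted p = 7.17e-05) and -0.164 with FBLQua (SE 0.0171, limma adjusted p = 6.21e-05), and from wild-type FBL it was -0.141 and -0.145. The sites 18S-509 and 18S-517 lie within its flanks, and with flanks of 2 positions the change was -0.278 with FBLTri and -0.213 with FBLQua. The neighbour 18S-509, guided by SNORD11 and SNORD11B from the same host gene, scored 0.997 and 1 in the controls, 0.990 and 0.994 with wild-type FBL, 0.895 and 0.887 with FBLTri and 0.858 and 0.923 with FBLQua. It fell by 0.108 with each mutant (SE 0.0181, limma adjusted p = 0.000928 and 0.000956). The third site of the stretch, 18S-517, guided by SNORD56 from NOP56, scored 0.986 and 0.982, and 0.986 and 0.978, with the mutants and was called in none of the comparisons.

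At 18S-166, guided by SNORD44 from GAS5, the controls scored 0.990 and 0.998 and wild-type FBL 0.989 and 0.976. FBLTri gave 0.857 and 0.858 and FBLQua 0.908 and 0.899, below both. The change from control was -0.136 with FBLTri (SE 0.0119, limma adjusted p = 2.31e-05) and -0.0904 with FBLQua (SE 0.0119, limma adjusted p = 0.000254). The scores with FBLQua lay between those with FBLTri and those of the controls at this site, and that order was not tested.

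The pair 18S-1326 and 18S-1328 lies 2 nucleotides apart and is guided from RPL13A, by SNORD33 and by SNORD32A, with SNORD32B also named for the latter. The former scored 0.968 and 0.964 in the controls, 0.951 and 0.966 with wild-type FBL, 0.843 and 0.843 with FBLTri and 0.866 and 0.881 with FBLQua. Its change from control was -0.123 (SE 0.014, limma adjusted p = 0.000103) and -0.0929 (SE 0.014, limma adjusted p = 0.000553). The latter scored 0.974 and 0.969, 0.960 and 0.970, 0.882 and 0.877, and 0.877 and 0.890 in the same order, and it fell by 0.0920 and 0.0878 (SE 0.00663 for both, limma adjusted p = 8.37e-06 and 1.1e-05). Each site lies in the flanks of the other, so the values are not independent.

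The site 18S-668, guided by SNORD36A and SNORD36B from RPL7A, scored 0.979 and 0.95 in the controls, 0.971 and 0.961 with wild-type FBL, 0.841 and 0.873 with FBLTri and 0.882 and 0.878 with FBLQua. It fell by 0.108 and 0.0848 (SE 0.0134 for both, limma adjusted p = 0.000158 and 0.000695). At 18S-644 the changes were -0.0748 and -0.0854. At 18S-683, with 1 and 1 in the controls, 0.922 and 0.909 with FBLTri and 0.929 and 0.881 with FBLQua, they were -0.0846 and -0.0951 (SE 0.0275 for both, limma adjusted p = 0.0246 and 0.0149). The fall of 18S-683 with FBLTri was not called without any 1 of the 4 libraries compared (-0.0910 to -0.0782). Its fall with FBLQua was not called without FBLQua replicate 2 (-0.0712) or without either control library (-0.0951 for both), and it was -0.161 with flanks of 2 positions.

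In 28S rRNA the falls were smaller. The largest, at 28S-2351, was -0.0613 with FBLTri and -0.0551 with FBLQua, from 0.982 and 0.963 in the controls to 0.914 and 0.909, and 0.915 and 0.920. Next were 28S-3809 (SNORD79), at -0.0503 and -0.0411, 28S-4426, at -0.0483 and -0.0497, and 28S-3866, at -0.0392 and -0.0450. All 14 chosen sites of 28S rRNA kept a group mean of 0.9 or more with either mutant, and 14 and 15 of the 20 in 18S rRNA did.

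By host gene, 4 of the 5 chosen sites guided from GAS5 fell with FBLTri and 4 with FBLQua (18S-166, 28S-1612, 28S-3809 and 28S-3866 each time), and 2 of 3 guided from RPL13A, where 70.8% and 70% of all sites were lower. These counts are near that share. Of the 5 guided from SNHG1 only 18S-1383 fell in these comparisons with control. The same host gene thus carried guides of sites that fell and of sites that were not called. The only chosen site called higher in the 6 comparisons of groups was 18S-27, guided by SNORD27 from SNHG1, with FBLQua against wild-type FBL. It scored 0.978 and 0.970 against 0.916 and 0.960, a change of 0.0360 (SE 0.0133, limma adjusted p = 0.0480). That call was lost without FBLQua replicate 1 (0.0320) or replicate 2 (0.0399), without wild-type FBL replicate 1 (0.0141) and without control KD with the empty vector replicate 2 (0.0360), and the change was 0.0579 without wild-type FBL replicate 2. It was also lost with the compared groups fitted alone, with no variance trend, on the logit scale, with flanks of 2 positions and with the replicate block, so it was not called under 9 of 13 alternatives.

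The size of the change with a mutant was also set against that of the knockdown without a vector. This was tested as the change with a mutant, from control KD with the empty vector, minus the change in FBL KD without a vector, from its own control, a contrast added after the data were seen. With FBLTri 6 of the 34 were lower and 3 higher (background 19.2% lower and 6.67% higher), and with FBLQua 6 were lower and 3 higher (background 19.2% and 5.83%). These counts are close to the share over all sites, and only the single sites are described. The 2 contrasts share 3 of their 4 groups. With library medians made equal the split over all sites was 18 lower and 28 higher with FBLTri and 14 and 25 with FBLQua, and over the chosen sites 2 and 12, and 1 and 14. The vector, the shFBL number and the depth differ along with the mutant in this contrast and cannot be told apart from it.

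The site 18S-512 was lower in both contrasts. Its change was -0.0346 in FBL KD without a vector, from 1 and 0.987 to 0.960 and 0.958, and the difference was -0.125 with FBLTri (SE 0.0241, limma adjusted p = 0.00615) and -0.129 with FBLQua (SE 0.0241, limma adjusted p = 0.00765). With flanks of 2 positions the difference with FBLTri was -0.221. Also lower with FBLTri were 18S-166 at -0.102, 18S-509 at -0.0928, 18S-1326 at -0.0763, 18S-1328 at -0.0683 and 28S-3809 at -0.05. With FBLQua the others were 18S-509 at -0.0931, 18S-1328 at -0.0640, 18S-166 at -0.0561, 28S-3809 at -0.0408 and 28S-3866 at -0.0353. On the logit scale, which stretches differences near 1, the lower calls at 18S-166, 18S-509, 18S-512 and 18S-1328 were lost with both mutants and that at 18S-1326 with FBLTri. So were the calls at 28S-3809 with both and at 28S-3797 and 28S-3866 with FBLQua.

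The sites 18S-1383 and 28S-3771 moved the other way in both contrasts. At 18S-1383 the scores were 0.991 and 0.992 in control KD with the empty vector, 0.976 and 0.977 with FBLTri and 0.971 and 0.968 with FBLQua, so the changes of -0.0155 and -0.0217 were smaller than that of -0.0676 in FBL KD without a vector. The differences were 0.0522 with FBLTri (SE 0.00371, limma adjusted p = 6.1e-05) and 0.0460 with FBLQua (SE 0.00371, limma adjusted p = 0.00013). At 28S-3771, with 0.982 and 0.988 in those controls, 0.980 and 0.960 with FBLTri and 0.970 and 0.977 with FBLQua, they were 0.0487 (SE 0.00909, limma adjusted p = 0.0053) and 0.0518 (SE 0.00909, limma adjusted p = 0.00556). These 4 differences kept their sign and call under every alternative tried. The choosing libraries scored 0.955 and 0.947 at 18S-1383 and 0.936 and 0.955 at 28S-3771.

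Other differences of this kind depended on single libraries or on the setting. Flanks of 2 positions ended the calls of 28S-3809 with both mutants, of 28S-3820 with FBLTri and of 18S-166 and 18S-1328 with FBLQua. Fitting the compared groups alone ended those of 18S-1326 with FBLTri and of 18S-166, 18S-509 and 28S-3866 with FBLQua, and fitting no variance trend those of 18S-166 and 28S-3866 with FBLQua. With FBLTri, 18S-1326 was not called without FBLTri replicate 1 (-0.0766) or 2 (-0.0760), control KD replicate 1 (-0.0736) or 2 (-0.0790), or control KD with the empty vector replicate 1 (-0.0745) or 2 (-0.0780). The call of 18S-509 with FBLTri was lost without any of the same 6 libraries (-0.0970 to -0.0885) or FBL KD replicate 1 (-0.0827). That of 28S-3820, higher by 0.0422 with FBLTri, was lost without FBLTri replicate 1 (0.0371), control KD replicate 2 (0.0384) or control KD with the empty vector replicate 2 (0.0339).

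With FBLQua, the call of 18S-166 was lost without either library of FBLQua, of control KD or of control KD with the empty vector (-0.0604 to -0.0517), and the difference was -0.0359 without FBL KD replicate 1. That of 18S-509 was lost without FBL KD replicate 1 (-0.0830) or either library of either control (-0.0950 to -0.0912), and the difference was -0.0606 without FBLQua replicate 1. That of 28S-3797, higher by 0.0356, was lost without FBLQua replicate 1 (0.0348) or 2 (0.0363), control KD replicate 1 (0.0372) or 2 (0.0339), or control KD with the empty vector replicate 2 (0.0326). That of 28S-3809 was lost without FBL KD replicate 2 (-0.0349), control KD replicate 1 (-0.0352), either FBLQua library (-0.0421 and -0.0395) or either control with the empty vector (-0.0364 and -0.0453). That of 28S-3866 was lost without FBL KD replicate 2 (-0.0318), FBLQua replicate 1 (-0.0261), control KD replicate 1 (-0.0301) or control KD with the empty vector replicate 1 (-0.0377) or 2 (-0.0328). The 9 calls with FBLQua became 5 without FBLQua replicate 1, 5 without control KD replicate 1 and 4 without control KD with the empty vector replicate 2.

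Over the 6 comparisons of groups, 9 of the 34 sites were lower in 5 and another 9 in none, against 26 and 25 of all 120 sites. Lower in all 6 were 0 of the 34 and 31 of all sites, a count that needs a fall with wild-type FBL, where 0 of the 34 were called. The 9 never lower were 18S-27, 18S-484, 18S-517, 18S-627, 18S-1490, 18S-1804, 28S-4468, 28S-4469 and 28S-4493. Not being called says little where flanks are thin. In FBL KD without a vector the flank levels of 18S-1804 were 35.2 and 17.2 counts, its scores were 0.886 and 1, and the change of -0.0391 had a 95% interval of -0.121 to 0.0432. At 18S-627 the interval ran from -0.0632 to 0.0620, at 18S-484 from -0.0441 to 0.0561 and at 28S-4493 from -0.0857 to 0.0299. A fall of the size called at 28S-3820 (-0.0384) lies inside each of these intervals.

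The adjacent pair 28S-4468 and 28S-4469 was the steadiest, but each lies in the flanks of the other, so their values are not independent. The first, guided by SNORD62A and SNORD62B, scored 0.990 to 1 in all 14 knockdown libraries, and the second, the FTSJ3 site, 0.973 to 0.9946. In FBL KD without a vector the change was 0.000656 at 28S-4468 (SE 0.0021, 95% interval -0.00426 to 0.00557) and -0.00154 at 28S-4469 (SE 0.00508, 95% interval -0.0134 to 0.0103). With FBLTri the changes were 0.00278 and -0.00107. Neither was called in any of the 6 comparisons, although 28S-4469 was called lower in FBL KD without FBL KD replicate 2 (-0.0102). The site 18S-1490, guided by SNORD25 from SNHG1, changed by 0.000156 in FBL KD without a vector (95% interval -0.0084 to 0.00871).

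Sites that share a guide were not always chosen together. Of the chosen sites 6 share a named guide with a site that was not chosen, and 0 share one with another chosen site. SNORD45A is named for 18S-172 and for 18S-159. Their scores in the choosing libraries (0.958 and 0.964 against 0.842 and 0.856) restate the choice. With FBLTri 18S-172 scored 0.965 and 0.954 and 18S-159 scored 0.662 and 0.650, from 0.980 and 0.980, and 0.972 and 0.996, in the controls. The change of 18S-159 was -0.328 (SE 0.0113, limma adjusted p = 1.67e-07), while 18S-172 was not called. SNORD45B is named for 18S-172 only, and SNORD45C is named for 18S-159 but not for 18S-172.

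SNORD15A is named for 28S-3771 and 28S-3764. In FBL KD without a vector 28S-3764 scored 0.630 and 0.826, from 0.992 and 1, where 28S-3771 scored 0.936 and 0.934. SNORD80 is named for 28S-1612 and 28S-1521, and there 28S-1612 scored 0.988 and 0.994 and 28S-1521 0.855 and 0.782. SNORD62A and SNORD62B are named for 28S-4468, at 1 and 1 in FBL KD, and for 18S-590, at 0.921 and 0.908. At all 3 of these partners limma called a fall in FBL KD without a vector, with changes of -0.268 at 28S-3764, -0.175 at 28S-1521 and -0.0763 at 18S-590 (adjusted p = 0.005, 0.000153 and 0.000738). With FBLTri 28S-1612 scored 0.976 and 0.971 and 28S-1521 0.931 and 0.945, a smaller gap than without a vector. With FBLQua 28S-1521 scored 0.919 and 0.926. Partner 28S-3764 scored 0.772 and 0.780 with FBLTri, and 18S-590 scored 0.908 and 0.895.

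For SNORD30 the order was not the same in all libraries. In FBL KD without a vector 18S-1383 scored 0.927 and 0.929 and its partner 28S-3804 scored 0.910 and 0.981, a change of -0.0507 that limma did not call (adjusted p = 0.0612). With FBLTri 18S-1383 scored 0.976 and 0.977 and 28S-3804 scored 0.864 and 0.847, a change of -0.115 for the partner (limma adjusted p = 0.00107). SNORD32A and SNORD32B are named for 18S-1328 and 28S-1511. With FBLTri these scored 0.882 and 0.877, and 0.884 and 0.881, so here the chosen site was no higher than its partner. Further guides are named for some partners that were not chosen: SNORD15B for 28S-3764, SNORD77 for 28S-1521 and SNORD51 for 28S-1511. The differences between partners were not tested. The partners 28S-3771 and 28S-3764 lie close together and share part of their flanks. Other partners lie in different rRNAs or stretches with different flanks.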

How the data were processed

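RiboMethSeq of total RNA from 19 Kasumi-1 libraries was used. Per the labels' protocols, 100 ng of RNA was hydrolysed at 95 °C for 12 min. Per the submitters' processing notes the tools include cutadapt and Bowtie2, with no version or reference stated there. Per the labels, the authors deposited raw end counts (7000 rRNA positions) and score C as a fraction for 120 sites. The formula with 6 flanking positions on either side, weights from 1 to 0.5 and negative values set to 0 gave the deposited fraction in 2280 of 2280 cases within 1e-09. All table columns matched a library.

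The 34 sites, and the lists used to describe them, were chosen with earlier results of these data known. Groups were taken from titles. Scores of 12 libraries in 6 groups of 2 were fitted with limma 3.58.1 (R 4.3.3), with a trend of variance on mean, and tests were two-sided with p-values adjusted by Benjamini-Hochberg over 120 sites at 0.05. The test was also tried on simulated data. The choosing libraries were left out of it. SNORD127 clones were described only. Named were the chosen sites with the largest called changes in each comparison, those nearest the limit, those sharing a guide and 28S-4469. Counting intervals are exact Poisson intervals (Garwood, 95%) of the site's count with the flank level taken as fixed, computed with Python 3.11.15 and scipy 1.17.1. Alternatives were fits of all 14 knockdown libraries or of the compared groups alone, no trend, a logit scale (scores held between 0.005 and 0.995), flanks of 2 positions, scores not set to 0, the 10% of sites with the thinnest flanks left out, equal library medians, a replicate block, and each library left out. Leaving out control KD with the empty vector replicate 2, in which 1 position held 20.8% of end counts, where it was not compared, and the contrasts between changes, were added after seeing the data. No rRNA or guide sequence was used here, and the host genes of some guides are not reported here.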

Additional observations from a re-analysis of the deposited data

How the results depend on the processing

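Making library medians equal had the largest effect. The number of chosen sites called lower became 0 in FBL KD without a vector, 0 with FBLTri and 0 with FBLQua against control, and 1 with FBLTri and 1 with FBLQua against wild-type FBL, and the calls in the contrasts between changes became 14 with FBLTri and 15 with FBLQua. The change then turned positive, in FBL KD without a vector, at 18S-644 (0.0471), 18S-668 (0.0468), 18S-683 (0.0114), 18S-1326 (0.0521), 18S-1383 (0.0311), 28S-2351 (0.0312), 28S-3771 (0.0354), 28S-3797 (0.0540), 28S-3820 (0.0603), 28S-4426 (0.0339) and 28S-4469 (0.0972), which was also at 0.0402 with wild-type FBL. Against control it did so with FBLTri at 18S-166 (0.00221), 18S-509 (0.0311), 18S-668 (0.0308), 18S-1326 (0.0158) and 28S-4469 (0.138), and with FBLQua at 18S-166 (0.0529), 18S-509 (0.0354), 18S-683 (0.0481) and 18S-1326 (0.0503). With FBLQua against wild-type FBL it did so at 18S-509 (0.000248), 18S-668 (0.0154), 18S-1326 (0.0164) and 18S-1328 (0.0200), and in the contrast between changes at 28S-3809 (0.00372). These lists cover only the sites named for each comparison, and other chosen sites turned positive as well. Among those were 18S-683 with FBLTri against control (0.0541) and 28S-3866 in the contrast between changes with FBLQua (0.00928). Against wild-type FBL they included 18S-1328 with FBLTri (0.0112) and 18S-166 with FBLQua (0.0225). The setting subtracts the fall of the middle site, which was larger than that of most chosen sites.

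Fitting the compared groups alone gave 8 falls in FBL KD without a vector in place of 14, and 1 with wild-type FBL in place of 0. On the logit scale there were 3 with wild-type FBL, 49 sites called with FBLTri against wild-type FBL in place of 74, and 4 and 3 calls in the contrasts between changes in place of 9 and 9, and 18S-1326 in the first of these was at 0.387 logit units. Leaving out 1 library gave 8 to 16 falls in FBL KD without a vector, 0 to 2 with wild-type FBL (23 to 36 calls over all sites), 10 to 17 with FBLQua against wild-type FBL, and 6 to 13 and 4 to 11 calls in the contrasts between changes. The replicate numbers were not taken as pairing the libraries in the main fit. Of 15 correlations of replicate deviations between groups, however, 10 were over 0.1 (range -0.0358 to 0.694). The highest was between wild-type FBL and FBLQua, which are compared above, and the main fit does not allow for such a shared deviation. With a replicate block the falls were 13 in FBL KD without a vector, 1 with wild-type FBL, 19 and 17 with FBLTri and FBLQua against control and 19 and 18 against wild-type FBL, with 10 and 10 calls in the contrasts. A limit of 0.95 left 14 chosen sites. Depth limits mainly the FBL KD and control KD libraries without a vector.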
